A study of Homo sapiens with 6 samples.

Results

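The transcripts of 10 genes of the cohesin complex and its direct regulators were followed in HCT116 cells carrying an shRNA against GDPD5 (shGDPD5) or a control shRNA (shCtrl). The genes were taken by name: SMC1A, SMC3, RAD21, STAG1 and STAG2 encode the ring, NIPBL the loader, WAPL and PDS5B the release factors, and ESCO2 and CDCA5 the factors that establish cohesion. Each matched 1 row among the 79302 rows of the count table, and all 10 were among the 16755 genes with enough counts to be tested.

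HCT116 is a human colorectal cancer cell line. RNA-seq was available from 3 shGDPD5 and 3 shCtrl libraries. The paper describes radioresistant HCT116 cells collected 6 h after irradiation with 4 Gy in both groups. The sample titles give only "cell line", the shRNA and a replicate number, not the name of the line, radioresistance, dose or time. Which of the GDPD5 shRNAs was sequenced, and whether replicate libraries derive from separate cultures, is not stated in the sources used here, so p-values measure only the spread between these libraries, which may be technical.

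Cohesin is a ring-shaped protein complex that encircles DNA. SMC1A and SMC3 form the long arms, RAD21 closes the ring, and either STAG1 or STAG2 binds RAD21. NIPBL with its partner MAU2 loads the ring, WAPL with PDS5A or PDS5B opens it again, ESCO1 and ESCO2 acetylate SMC3, and sororin, the product of CDCA5, shields acetylated rings from WAPL so that sister chromatids stay together after replication. Cohesin also shapes chromatin loops with CTCF and takes part in the repair of DNA double-strand breaks, and ESCO2 and CDCA5 are known as genes of the S and G2 phases in dividing cells.

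Promoter windows from 250 bases before to 50 bases after the start site were taken from RefSeq (GRCh38.p14) for 8 of the 10 genes, with 11 windows in all. They were searched on both strands for letters of E2F sites (TTTGGCGC, TTTCCCGC, TTTGCCGC or TTTCGCGC) and of the cell cycle homology region, CHR (TTTGAA or TTCGAA), elements known from genes whose transcription follows the cell cycle. The windows shown are those of CDCA5, the member with the largest log2 fold change here, of SMC1A, the ring subunit with the largest, of NIPBL, whose mean barely differed, and of WAPL, the 1 member that fell. Capitals mark E2F or CHR letters.
CDCA5 chr11:65083991-65084290, minus strand: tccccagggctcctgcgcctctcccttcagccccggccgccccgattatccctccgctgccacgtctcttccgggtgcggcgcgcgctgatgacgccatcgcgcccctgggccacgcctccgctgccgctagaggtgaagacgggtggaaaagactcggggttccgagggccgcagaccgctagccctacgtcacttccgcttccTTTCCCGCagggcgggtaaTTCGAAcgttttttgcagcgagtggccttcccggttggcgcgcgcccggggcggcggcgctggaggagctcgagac
SMC1A chrX:53422605-53422904, minus strand: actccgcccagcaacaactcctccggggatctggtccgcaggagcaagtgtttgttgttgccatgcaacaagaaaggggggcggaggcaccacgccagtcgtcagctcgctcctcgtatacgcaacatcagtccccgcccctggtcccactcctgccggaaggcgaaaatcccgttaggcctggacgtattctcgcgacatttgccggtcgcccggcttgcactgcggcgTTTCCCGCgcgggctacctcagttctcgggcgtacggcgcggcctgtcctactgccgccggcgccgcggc
NIPBL chr5:36876519-36876818, plus strand: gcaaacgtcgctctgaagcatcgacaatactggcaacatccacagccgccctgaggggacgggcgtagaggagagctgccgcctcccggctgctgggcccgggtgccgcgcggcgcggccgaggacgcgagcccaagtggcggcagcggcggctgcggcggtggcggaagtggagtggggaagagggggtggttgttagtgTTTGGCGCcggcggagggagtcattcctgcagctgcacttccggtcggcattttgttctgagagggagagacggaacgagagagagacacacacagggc
WAPL chr10:86521743-86522042, minus strand: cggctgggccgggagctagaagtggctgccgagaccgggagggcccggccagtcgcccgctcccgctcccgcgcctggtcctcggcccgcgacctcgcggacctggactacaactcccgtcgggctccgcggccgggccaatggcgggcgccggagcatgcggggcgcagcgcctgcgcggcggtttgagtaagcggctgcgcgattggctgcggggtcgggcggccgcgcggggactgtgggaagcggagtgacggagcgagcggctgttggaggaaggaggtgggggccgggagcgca

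CDCA5 held both kinds of letters, TTTCCCGC beginning 45 bases and TTCGAA beginning 26 bases before the start site. SMC1A held TTTCCCGC 20 bases before the start in 1 of its 2 windows, and NIPBL held TTTGGCGC 49 bases before it. The WAPL window held neither. Among the members with a window searched, 5 of 8 genes had E2F letters (also STAG1, and STAG2 in 1 of 3 windows). CHR letters occurred in 3 of 8 (also SMC3 and PDS5B). No window of RAD21 or ESCO2 was searched, so these counts leave both genes open. Counted by window, 5 of 11 held E2F letters and 3 of 11 held CHR letters. Over all 35114 windows of this length, also counted by window, the letters were present in 3.31% for E2F and 16.4% for CHR. Genes with E2F letters were thus the called SMC1A, CDCA5 and STAG1 as well as NIPBL and STAG2, which did not pass the test. A match describes the letters only, and no binding was measured.

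Total counts were 16715447 to 18510670 in shGDPD5 and 17602320 to 18076702 in shCtrl libraries. GDPD5 itself had 5.44, 5.55 and 5.19 CPM (counts scaled to a common library size by TMM) in shGDPD5 libraries, against 8.33, 11.6 and 9.75 CPM in shCtrl libraries (log2 fold change -0.88, SE 0.14, adjusted p = 0.000117 by edgeR's quasi-likelihood test). Of 8 epithelial markers 7 were tested, with summed levels (CPM of the marker lists without TMM scaling) of 2680 to 2820 CPM in shGDPD5 and 3330 to 3800 CPM in shCtrl libraries, a shift whose part in the results was not tested. The 5 fibroblast markers summed to 20.8 to 24.3 CPM in shGDPD5 and 18.4 to 20.9 CPM in shCtrl libraries, nearly all of it from COL1A1 with 323 to 417 counts per library, while COL1A2 and DCN were at 0 in every library and COL3A1 and PDGFRA had at most 6 and 1 counts. Among immune markers CD3E was at 0, PTPRC and CD14 had at most 3 counts and LYZ 5 to 13 counts in any library. Of the 3 endothelial markers CDH5 was at 0, PECAM1 had at most 1 count and VWF 4 to 8 counts. The endothelial list stayed under 1 CPM in every library. The shCtrl replicate 1 library stood apart from the other shCtrl libraries: chi-square per degree of freedom over genes was 6.12 and 7.1 with it and 1.66 without it, against 1.68 to 3.33 among the shGDPD5 libraries. Values that rest on this library are therefore also given without it.

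Across the members, the establishment factors differed most between the groups and the ring and its regulators less. At an adjusted p under 0.05, 7 of the 10 members rose in shGDPD5 cells, namely ESCO2, CDCA5, SMC1A, RAD21, PDS5B, SMC3 and STAG1. Over all tested genes 29.7% rose under the same rule. WAPL alone fell, where 30.1% of all tested genes fell, and STAG2 and NIPBL did not pass the test. The median log2 fold change of the members was 0.30, with a range of -0.22 to 1.81, against a median of 0.01 over all tested genes. The members' summed level was 1408.9, 1413.6 and 1418.5 CPM in shGDPD5 libraries, against 1220.5, 1089.4 and 1086.2 CPM in shCtrl libraries.

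The study states more than 1 cut on the fold and a t test p under 0.05, without naming an adjustment. Each cut was applied here with the unadjusted p of edgeR, not with a t test. With a log2 fold change of 1 or more in size, ESCO2 and CDCA5 rose and 0 members fell, where 5.38% of all tested genes rose and 6.60% fell. With a fold over 1.5 or under 0.5, SMC1A joined the risen members, again with 0 that fell, where 13.6% of all tested genes rose and 6.60% fell. The CPM of the groups did not overlap for 9 members, 7 of them higher and 2 (STAG2 and WAPL) lower in shGDPD5, where 32.6% of all tested genes were higher and 32.4% lower without overlap. In bulk RNA, a smaller share of cells that express a gene cannot be told apart from less of its RNA per cell.

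**Figure D1:**
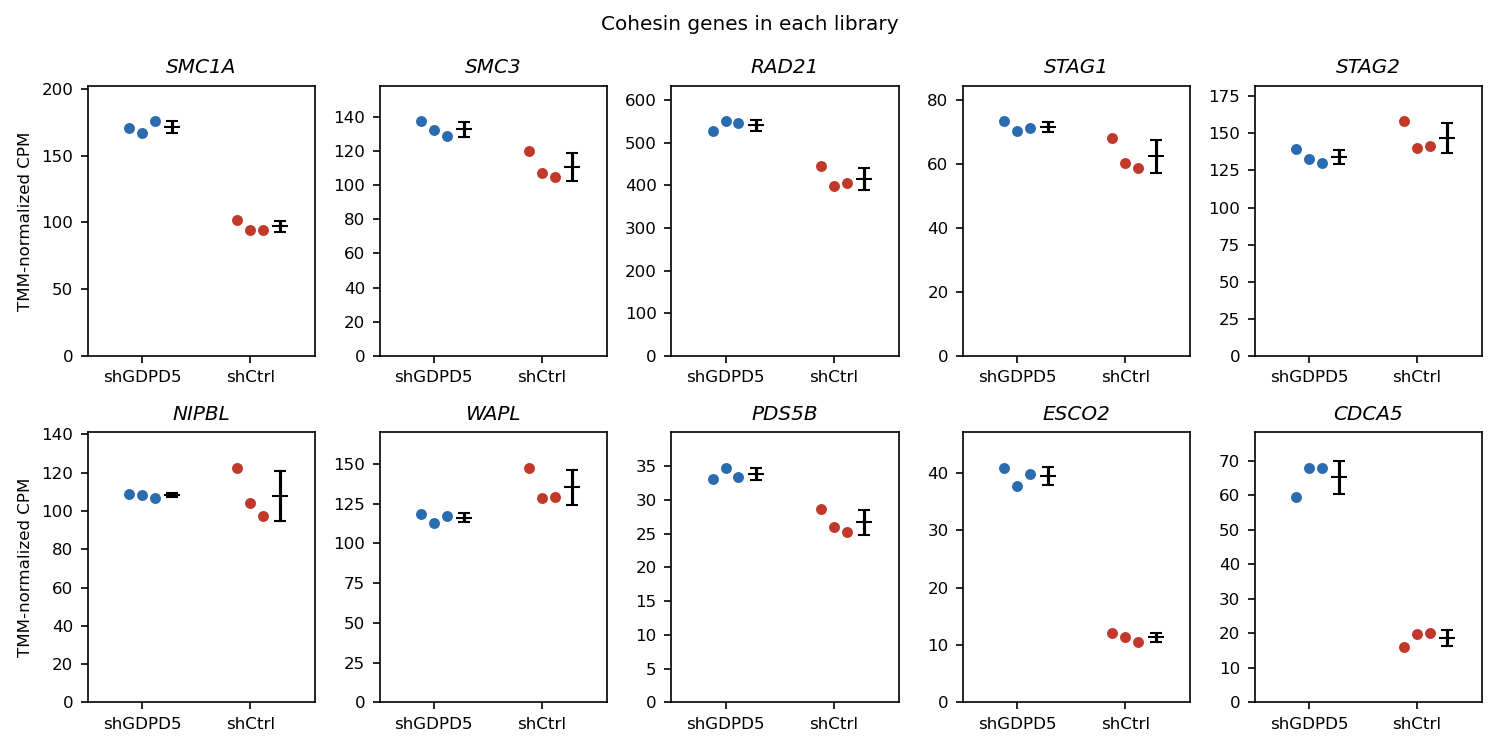
TMM-normalized CPM (vertical axes, from 0) of the 10 cohesin genes in each library, shGDPD5 in blue and shCtrl in red, with the mean and SD of 3 libraries beside the points. ESCO2 and CDCA5 show the widest separation, about 3.5-fold, and NIPBL overlaps, with shCtrl replicate 1 above and the other shCtrl libraries below the shGDPD5 libraries.

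The establishment factors ESCO2 and CDCA5 rose by nearly the same factor. ESCO2 (ENSG00000171320, chromosome 8, plus strand), the acetyltransferase that modifies SMC3 during S phase, had 40.9, 37.8 and 39.9 CPM in shGDPD5 libraries, against 12.2, 11.3 and 10.6 CPM in shCtrl libraries. Every shGDPD5 library was above every shCtrl library by a wide margin. The difference was 3.48-fold (log2 fold change 1.80, SE 0.07, 95% interval 1.64 to 1.96, adjusted p = 1.1e-09 by edgeR), which ranked 147 from the highest log2 fold change of the 16755 tested genes.

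CDCA5 (ENSG00000146670, chromosome 11, 65066300 to 65084164, minus strand) encodes sororin, which holds acetylated cohesin closed against WAPL. It had 59.6, 67.9 and 68.0 CPM in shGDPD5 libraries, against 16.01, 19.9 and 20.01 CPM in shCtrl libraries. The first replicate was lowest in each group, and the groups were far apart. The difference was 3.50-fold (log2 fold change 1.81, SE 0.09, 95% interval 1.62 to 1.99, adjusted p = 4.11e-09 by edgeR). Without shCtrl replicate 1 the log2 fold change was 1.71 for CDCA5 and 1.85 for ESCO2.

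The counterparts of both factors did not share this rise. ESCO1, the other SMC3 acetyltransferase, which also acts outside S phase, had 40.8, 44.3 and 44.1 CPM in shGDPD5 libraries, against 58.4, 52.9 and 50.9 CPM in shCtrl libraries. It fell without overlap between the groups (log2 fold change -0.33, SE 0.07, adjusted p = 0.000879 by edgeR). Within a library, where the ratio of 2 genes' counts does not depend on the scaling between libraries, ESCO2 counts were 1.00, 0.854 and 0.905 of ESCO1 counts in shGDPD5 cells, against 0.209, 0.215 and 0.208 in shCtrl cells. The counts of both acetyltransferase genes were thus nearly equal in shGDPD5 libraries, with ESCO1 well ahead in shCtrl libraries. The ratio differed by 2.13 on the log2 scale (4.36-fold). The counts were not divided by length, with 7973 exonic bases for ESCO2 and 5288 for ESCO1, so they do not rank the genes by level.

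WAPL (ENSG00000062650, chromosome 10, 86435256 to 86521815, minus strand), which opens the ring and lets cohesin leave DNA, had 118, 113 and 117 CPM in shGDPD5 libraries, against 148, 129 and 129 CPM in shCtrl libraries. All shGDPD5 libraries were below all shCtrl libraries, of which replicate 1 was highest. WAPL fell (log2 fold change -0.22, SE 0.06, 95% interval -0.35 to -0.09, adjusted p = 0.00619 by edgeR), and without shCtrl replicate 1 the value was -0.16 (adjusted p = 0.00204 by edgeR). When each gene was tested alone on log2(CPM + 1), with adjustment over all genes, WAPL was not called (adjusted p = 0.0628), although its p before adjustment was under 0.05.

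The balance of CDCA5 to WAPL, the antagonists on the acetylated ring, was 0.504, 0.601 and 0.581 in shGDPD5 libraries, against 0.109, 0.155 and 0.155 in shCtrl libraries, given as CDCA5 counts over WAPL counts. The groups did not overlap, and the ratio differed by 2.03 on the log2 scale (4.07-fold), or by 1.86 without shCtrl replicate 1. Most of this difference lay in CDCA5, whose own log2 fold change was 1.81 against -0.22 for WAPL.

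Among the ring subunits, SMC1A rose most. SMC1A (ENSG00000072501, chromosome X, 53374149 to 53422728, minus strand) had 171, 167 and 176 CPM in shGDPD5 libraries, against 102, 94.4 and 94.4 CPM in shCtrl libraries. The groups lay far apart with little spread inside each. The log2 fold change was 0.82 (SE 0.05, 95% interval 0.71 to 0.93, adjusted p = 3.29e-08 by edgeR), and 0.85 without shCtrl replicate 1.

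SMC3, the partner arm (ENSG00000108055, chromosome 10, 110567691 to 110604636, plus strand), had 137, 132 and 128.5 CPM in shGDPD5 libraries, against 120.0, 107 and 105 CPM in shCtrl libraries. The groups did not overlap, but the lowest shGDPD5 library lay close to the highest shCtrl library, replicate 1. SMC3 rose 1.20-fold (log2 fold change 0.26, SE 0.06, 95% interval 0.14 to 0.39, adjusted p = 0.00184 by edgeR), or by 0.32 on the log2 scale without that library. The interval of SMC1A began above the end of that of SMC3. SMC1A counts were 1.24, 1.26 and 1.37 of SMC3 counts in shGDPD5 libraries, against 0.850, 0.882 and 0.902 in shCtrl libraries, so SMC1A had the more counts in every shGDPD5 library and the fewer in every shCtrl library. This ratio differed by 0.56 on the log2 scale. The counts were not divided by length, and SMC1A has 10484 exonic bases against 4275 for SMC3. Per kb of exonic length SMC3 was above SMC1A in both groups, at 31.0 against 16.3 CPM in shGDPD5 and 25.9 against 9.2 CPM in shCtrl.

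RAD21 (ENSG00000164754, chromosome 8, minus strand), the subunit that closes the ring and that separase cuts at anaphase, had the highest level of the members. It had 527, 551 and 547 CPM in shGDPD5 libraries, against 445, 398 and 405 CPM in shCtrl libraries. All shGDPD5 libraries were above all shCtrl libraries. RAD21 rose 1.30-fold (log2 fold change 0.38, SE 0.05, 95% interval 0.27 to 0.49, adjusted p = 2.81e-05 by edgeR), and the log2 fold change was 0.43 without shCtrl replicate 1. Relative to SMC3 the counts of RAD21 were 3.83, 4.17 and 4.26 in shGDPD5 libraries, against 3.71, 3.72 and 3.87 in shCtrl libraries. These ratios overlapped between the groups and differed by 0.12 on the log2 scale.

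The alternative subunits STAG1 and STAG2 had opposite signs, both with small differences. STAG1 (ENSG00000118007, chromosome 3, 136336233 to 136752403, minus strand), known at CTCF-bound sites and telomeres, had 73.3, 70.2 and 71.2 CPM in shGDPD5 libraries, against 68.1, 60.2 and 58.7 CPM in shCtrl libraries. STAG1 rose (log2 fold change 0.20, SE 0.06, 95% interval 0.07 to 0.33, adjusted p = 0.0144 by edgeR), with shCtrl replicate 1 just under the lowest shGDPD5 library. Without shCtrl replicate 1 the value was 0.26 (adjusted p = 0.000232 by edgeR). STAG1 was not called when tested by itself on log2(CPM + 1), as described for WAPL (adjusted p = 0.0758, with a p before adjustment under 0.05), nor by edgeR without shCtrl replicate 2 (log2 fold change 0.17, adjusted p = 0.0685), without shCtrl replicate 3 (0.15, adjusted p = 0.0728) or without shGDPD5 replicate 1 (0.18, adjusted p = 0.0632). STAG1 shares 1664 exonic bases, 21.2% of its exonic length, with PCCB on the other strand (log2 fold change -0.20, adjusted p = 0.021 by edgeR), and whether the counting used strand is not given in the sources used here.

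STAG2 (ENSG00000101972, chromosome X, 123960212 to 124422664, plus strand), the subunit of most cohesin in many cell lines and a gene often mutated in several cancers, had 139, 132 and 130.3 CPM in shGDPD5 libraries, against 158, 140.3 and 141 CPM in shCtrl libraries. The groups did not overlap, though the highest shGDPD5 library lay within about 1 CPM of the lowest shCtrl library. The log2 fold change of -0.13 (SE 0.06, 95% interval -0.25 to -0.01) did not pass the test (adjusted p = 0.0645 by edgeR). Without shCtrl replicate 2 (-0.16, adjusted p = 0.0477 by edgeR) or shCtrl replicate 3 (-0.16, adjusted p = 0.0482 by edgeR) it passed, and without shCtrl replicate 1 it was -0.08 (adjusted p = 0.0876 by edgeR).

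Set against each other, STAG1 counts were 0.526, 0.530 and 0.546 of STAG2 counts in shGDPD5 libraries, against 0.431, 0.429 and 0.415 in shCtrl libraries. This ratio varied by an SD of 0.03 on the log2 scale in either group, less than for either gene alone, since both genes were highest in shCtrl replicate 1 and in shGDPD5 replicate 1. It differed by 0.33 on the log2 scale without overlap, and by 0.34 without shCtrl replicate 1. STAG2 had more counts than STAG1 in every library.

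The release cofactor PDS5B (ENSG00000083642, chromosome 13, 32586427 to 32778019, plus strand), which works with WAPL and also with sororin, had 33.1, 34.8 and 33.4 CPM in shGDPD5 libraries, against 28.7, 26.0 and 25.3 CPM in shCtrl libraries. It rose without overlap (log2 fold change 0.34, SE 0.07, 95% interval 0.20 to 0.49, adjusted p = 0.000749 by edgeR), by 0.39 without shCtrl replicate 1. Its close relative PDS5A had 264, 262 and 258 CPM in shGDPD5 libraries, against 291, 259.8 and 257.5 CPM in shCtrl libraries, which overlapped (log2 fold change -0.04, 95% interval -0.16 to 0.07, adjusted p = 0.488 by edgeR). PDS5B counts were 0.126, 0.133 and 0.130 of PDS5A counts in shGDPD5 libraries, against 0.0987, 0.1002 and 0.0982 in shCtrl libraries. The ratio differed by 0.38 on the log2 scale, and PDS5A remained the larger of the pair in every library.

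NIPBL (ENSG00000164190, chromosome 5, 36876759 to 37066413, plus strand), the loader, had 109, 108.5 and 107 CPM in shGDPD5 libraries, against 123, 104 and 97.5 CPM in shCtrl libraries. The shGDPD5 libraries lay close together inside the span of the shCtrl libraries. The means were 108 ± 1.07 CPM in shGDPD5 and 108 ± 13.1 CPM in shCtrl (SD, n = 3 each), and the log2 fold change of 0.00 had a 95% interval of -0.16 to 0.16 (adjusted p = 0.982 by edgeR). Without shCtrl replicate 1 the value was 0.10 and passed (adjusted p = 0.0404 by edgeR), so this single library decided the call.

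The partner of NIPBL in loading, MAU2, had 30.7, 33.1 and 32.8 CPM in shGDPD5 libraries, against 22.0, 24.9 and 24.7 CPM in shCtrl libraries. MAU2 rose without overlap (log2 fold change 0.43, SE 0.07, adjusted p = 0.000167 by edgeR). NIPBL counts were 3.55, 3.28 and 3.26 times those of MAU2 in shGDPD5 libraries, against 5.57, 4.17 and 3.95 in shCtrl libraries. This was the 1 ratio of 7 that was lower in shGDPD5, by -0.42 on the log2 scale, or by -0.27 without shCtrl replicate 1.

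**Figure D2:**
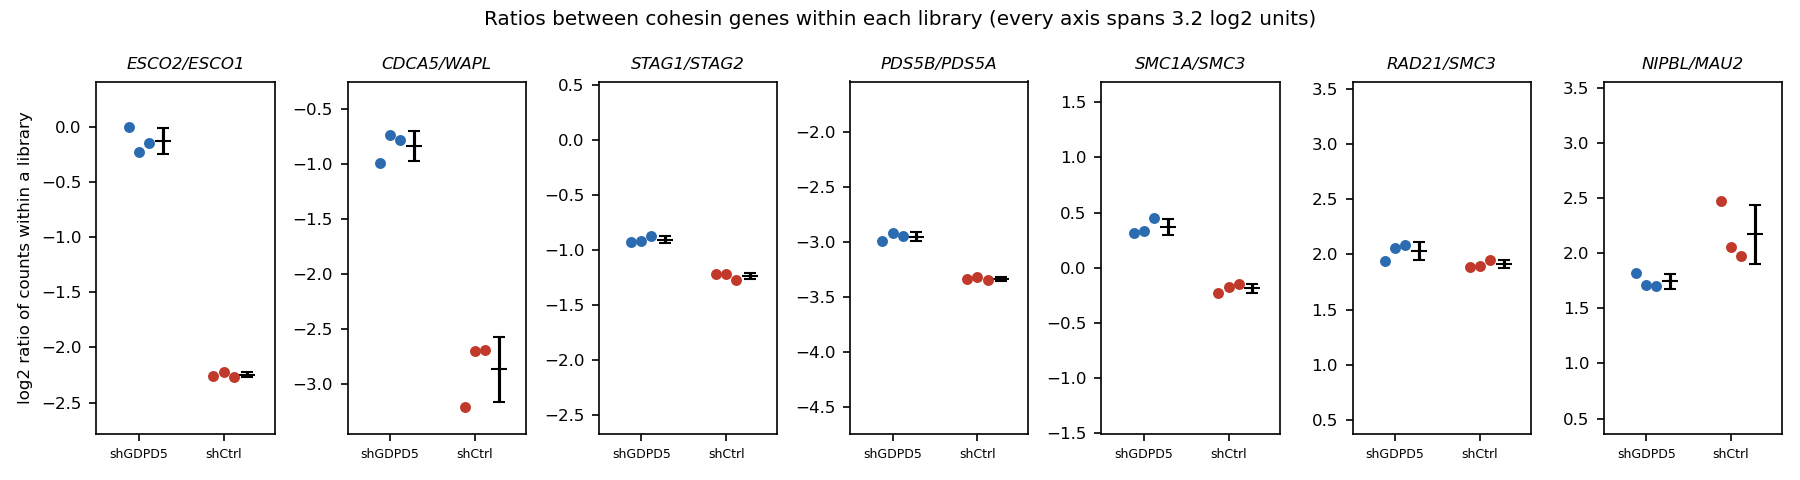
Log2 ratio of the counts of 2 genes within each library (vertical axes, each of the same length in log2 units), shGDPD5 in blue and shCtrl in red, with mean and SD of 3 libraries. ESCO2/ESCO1 and CDCA5/WAPL differ by 2.13 and 2.03 on the log2 scale, 4 ratios differ by 0.33 to 0.56 in size, and RAD21/SMC3 overlaps between the groups.

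The 7 within-library ratios were tested with a two-sided exact permutation test over the libraries. With 3 libraries against 3 the smallest possible p is 0.1, so that no ratio could pass 0.05. The 6 ratios without overlap had this smallest p (exact permutation p = 0.1, adjusted over the 7 ratios 0.117), and RAD21/SMC3 had an exact permutation p = 0.2. Since the ratios share genes and libraries, they are not independent of one another.

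Ring subunits and regulators also differed widely in level. To compare genes, CPM was divided by exonic length in kilobases from GENCODE release 29, which is not necessarily the annotation of the counts. RAD21 came first in both groups, with 87.5 ± 2.08 CPM per kb in shGDPD5 and 67.2 ± 4.12 CPM per kb in shCtrl (SD, n = 3 each), followed by SMC3 with 31.0 ± 1.05 CPM per kb in shGDPD5 and 25.9 ± 1.93 CPM per kb in shCtrl. The other 8 genes lay between 2.56 and 16.6 CPM per kb in shGDPD5 and between 1.42 and 18.7 CPM per kb in shCtrl libraries.

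In shGDPD5 libraries CDCA5 took place 3 with 16.6 ± 1.22 CPM per kb, followed by STAG2, SMC1A and WAPL with 16.4, 16.3 and 16.1 CPM per kb. These 4 neighbours overlapped one after the other and had no clear order. STAG1 with 9.12, NIPBL with 8.64, ESCO2 with 4.96 and PDS5B with 2.56 CPM per kb came next, each apart from its neighbours. In shCtrl libraries the order after SMC3 was WAPL, STAG2, SMC1A, NIPBL, STAG1, CDCA5, PDS5B and ESCO2, with overlaps between WAPL and STAG2, between SMC1A and NIPBL and between NIPBL and STAG1. CDCA5 stood at place 8 there with 4.75 ± 0.578 CPM per kb, and ESCO2 at place 10 with 1.42 ± 0.102 CPM per kb. With the median length of the coding transcripts in place of exonic length, RAD21 was again first in both groups, while other places moved. CDCA5 then stood at place 2 in shGDPD5 and place 7 in shCtrl, and SMC3 at place 3 in both. ESCO2 stood at place 7 in shGDPD5 and place 9 in shCtrl, and PDS5B was last in both. In shGDPD5 the libraries of CDCA5 overlapped those of SMC3, and those of SMC1A overlapped those of ESCO2. In shCtrl CDCA5 overlapped NIPBL and SMC1A, and STAG2 overlapped SMC3, so these neighbours had no clear order.

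The shCtrl replicate 1 library was the highest of its group for 9 of the 10 members, all except CDCA5, where it was the lowest. Over all tested genes it was the highest of its group for 40.4%. Relative to the mean of the other shCtrl libraries it was higher by 0.28 on the log2 scale for NIPBL, by 0.11 to 0.19 for the 8 other members above, and it was lower for CDCA5, at -0.30. Long genes deviated the same way: the median deviation of this library was -0.06 for the shortest quartile of tested genes by exonic length and 0.07 for the longest quartile, which holds 7 of the members. The other members lay in shorter quartiles. RAD21 deviated by 0.15 in quartile 3 (median 0.01), and SMC3 and CDCA5 by 0.18 and -0.30 in quartile 2 (median -0.03). The median log2 fold change between the groups was 0.00 in the shortest and -0.02 in the longest quartile. The part of gene length in this library's values was not tested further.

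Most other genes of the cohesin pathway rose as well. Of 27 further genes of the pathway 25 were tested, 19 rose, 3 fell and 3 did not pass, with a median log2 fold change of 0.48. Of all tested genes 29.7% rose and 30.1% fell, with a median of 0.01. The meiotic subunits SMC1B and RAD21L1 had at most 7 and 6 counts in any library and were not tested. At a log2 fold change of 1 or more in size 7 rose and 0 fell (5.38% and 6.60% of all tested genes), and at a fold over 1.5 or under 0.5 12 rose and 0 fell (13.6% and 6.60%).

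ESPL1, which encodes separase, the protease that cuts RAD21, had 61.1, 63.1 and 60.2 CPM in shGDPD5 libraries, against 17.2, 18 and 18.05 CPM in shCtrl libraries. The groups were far apart (log2 fold change 1.79, SE 0.06, adjusted p = 1.8e-10 by edgeR), close in size to ESCO2 and CDCA5. Its inhibitor securin, PTTG1, had a log2 fold change of 0.94, and the mitotic kinases HASPIN, AURKB, PLK1 and BUB1 had 1.55, 1.29, 0.99 and 0.86. The shugoshins SGO1 and SGO2, which protect centromeric cohesin in mitosis, rose by 0.48 and 0.34.

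Genes that link cohesion to the replication fork mostly rose. CLSPN, the checkpoint adaptor claspin, had 54.5, 60.2 and 51.9 CPM in shGDPD5 libraries, against 15.2, 16.5 and 13.6 CPM in shCtrl libraries (log2 fold change 1.88, adjusted p = 1.82e-09 by edgeR). DSCC1, of the clamp loader that aids SMC3 acetylation, had 45.8, 44.0 and 43.5 CPM in shGDPD5 libraries, against 14.8, 14.6 and 14.99 CPM in shCtrl libraries (log2 fold change 1.59, adjusted p = 8.11e-10 by edgeR). TIMELESS, a fork protection factor, had 91.2, 95.3 and 92.6 CPM in shGDPD5 libraries, against 41.2, 42.5 and 40.7 CPM in shCtrl libraries (log2 fold change 1.17, adjusted p = 1.8e-09 by edgeR). The groups of these 3 genes did not overlap. The other 2 subunits particular to that clamp loader went apart, CHTF18 at 1.37 and CHTF8 at -0.36. CHTF8 fell in these counts, and it shares 365 exonic bases with HAS3 on the other strand, whose log2 fold change was -1.46, with the part of that overlap not tested. WDHD1 (0.95), DDX11 (0.70) and TIPIN (0.20) rose. Of the 50-base stretches of their transcripts, 17.7% for DDX11 and 20.1% for TIPIN also occur in other annotated genes, which leaves their counts uncertain.

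The remaining genes differed less or fell. CTCF, the boundary factor that stops cohesin, and HDAC8, which removes the acetyl group from SMC3, rose by 0.24 and 0.34. SMC6 of the related SMC5/6 complex rose by 0.20 (adjusted p = 0.0226 by edgeR), though the CPM of its groups overlapped. SMC5 differed by 0.08 without passing the test (adjusted p = 0.256 by edgeR). REC8, the meiotic kleisin, fell by 0.89 on the log2 scale at a low level of 2.70 ± 0.509 CPM in shGDPD5 and 4.99 ± 0.295 CPM in shCtrl libraries (SD, n = 3 each). STAG3 had at most 1.07 CPM in any library and did not pass the test (adjusted p = 0.321 by edgeR).

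**Figure D3:**
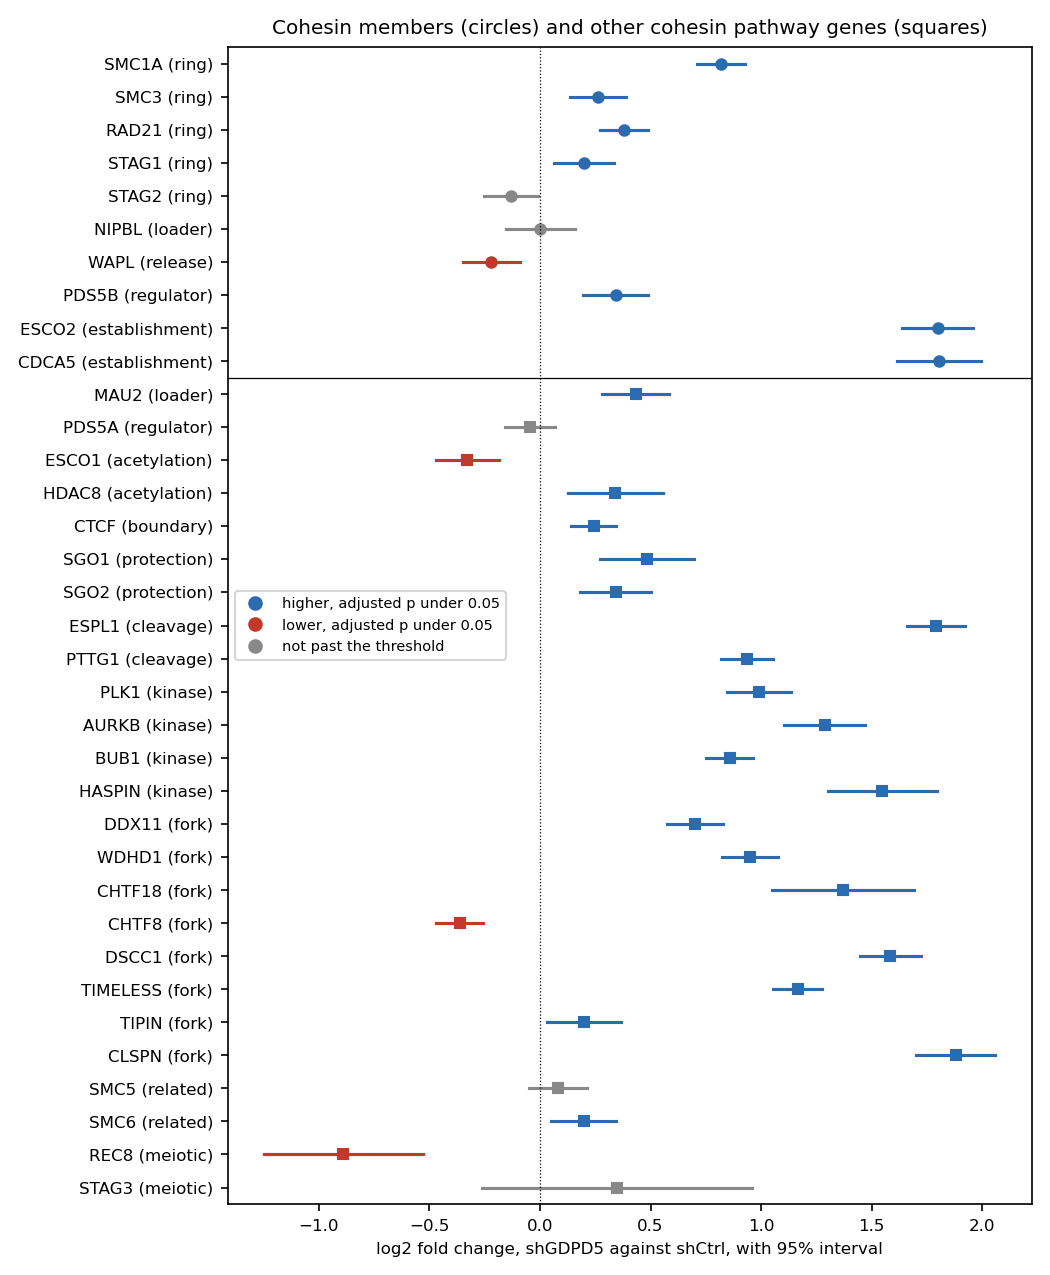
Log2 fold change of shGDPD5 over shCtrl (horizontal axis) with its 95% interval from edgeR for the 10 members (circles) and 25 further cohesin pathway genes (squares), coloured blue (higher) or red (lower) where the adjusted p was under 0.05, else grey. ESCO2, CDCA5, ESPL1 and CLSPN lie between 1.79 and 1.88, while the ring subunits lie between -0.13 and 0.82.

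Proliferation genes moved with the groups. All 10 genes of a proliferation list (MKI67, TOP2A, PCNA, MCM2, MCM5, CCNE2, CCNA2, CCNB1, TYMS and RRM2) rose, where 29.7% of all tested genes did, with log2 fold changes of 0.86 to 2.07 and a summed level without TMM scaling of 2280 to 2290 CPM in shGDPD5 against 805 to 837 CPM in shCtrl libraries. The median of that list, 1.43, lay below the values of ESCO2 and CDCA5 and above those of the other 8 members. Its part in the differences of the cohesin genes was not tested, and the share of cells in each cell cycle phase was not measured here.

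Counts of some members could take up reads of other genes. Of the 50-base stretches in annotated transcripts, 7.93% of those of SMC3, 3.87% of ESCO2, 1.62% of RAD21 and 0.635% of STAG2 also occur in another gene, and 0 of those of the other 6 members. Exons of RAD21 overlap those of UTP23 on the other strand over 518 bases, 8.37% of its exonic length, and UTP23 did not pass the test (log2 fold change -0.11, adjusted p = 0.185 by edgeR).

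Other ways of processing the counts left most members where they were. SMC1A, SMC3, RAD21, PDS5B, ESCO2 and CDCA5 passed the test in the same direction in 15 of 15 alternatives, with log2 fold changes of 0.80 to 0.88, 0.22 to 0.32, 0.35 to 0.44, 0.30 to 0.40, 1.71 to 1.86 and 1.71 to 1.87 in this order. WAPL passed in 14 of 15 and STAG1 in 11 of 15 alternatives. STAG2 passed in 3 and NIPBL in 1 of 15, and NIPBL also changed sign between alternatives.

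**Figure D4:**
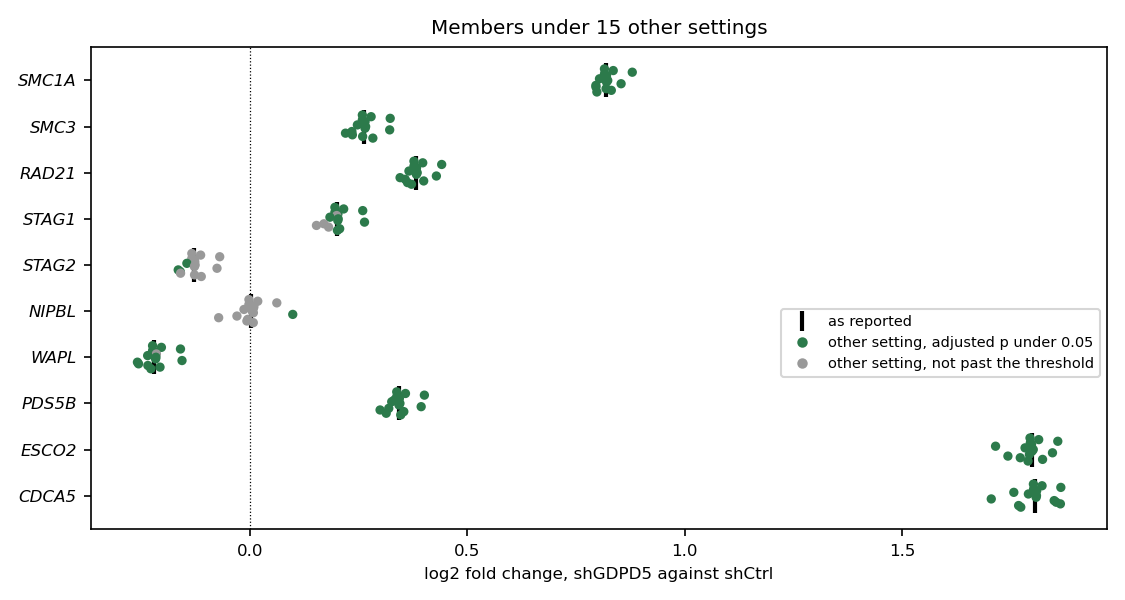
Log2 fold change of shGDPD5 over shCtrl (horizontal axis) of each member as reported (black bar) and under 15 alternatives (points), green where the adjusted p is under 0.05 and grey otherwise. The points of ESCO2 and CDCA5 stay between 1.71 and 1.87, those of NIPBL lie on both sides of 0 from -0.07 to 0.10, and those of STAG1 and STAG2 stay on their own side of 0 but not always past the threshold.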

How the data were processed

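RNA-seq of 6 HCT116 libraries was analysed, 3 shGDPD5 and 3 shCtrl, grouped by the sample labels. The authors deposited estimated counts in 1 table of 79302 rows, 370 of them for genes named only in the processing. For the aligner, counter, strand setting and build, a description was not given in the sources used here. Estimated counts were rounded, changing a value by at most 0.5. Genes were filtered with filterByExpr (minimum count 10), which left 16755, and scaled by TMM. The group difference was tested by quasi-likelihood in edgeR 4.0.16 (R 4.3.3) with Benjamini-Hochberg adjustment over all these genes, at a common biological coefficient of variation of 0.0555. At these depths precision is lowest for genes of a few counts.

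The members and lists were chosen with earlier results of these data known, and the pathway, marker and proliferation lists were written from general knowledge. Every member was named with its values, pathway genes with their log2 fold change, and per-library values were given for partners in the ratios and the 4 pathway genes of smallest adjusted p. Ratios within a library used counts plus 0.5. Alternatives were RLE, upper quartile and no scaling factors, DESeq2 1.42.0, limma-voom (limma 3.58.1), a per-gene test on log2(CPM + 1), no filter, 10 counts in every library, each library left out in turn, a replicate block, and the study's cuts on the fold, of which the fold over 1.5 or under 0.5 was added after seeing the data. Positions, lengths and overlaps came from GENCODE release 29 (GRCh38) and promoters from RefSeq (GRCh38.p14), which need not match the annotation behind the counts.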

Additional observations from a re-analysis of the deposited data

How the results depend on the processing

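Of the counts of called genes under the alternatives, 86 stayed within 1.5 times of the reported count and 16 did not, and 63 of 63 ratio values kept their direction. At an unadjusted edgeR p under 0.05 and a log2 fold change of 1 or more in size, 902 genes were called higher and 1105 lower. Among them were 2 and 0 of the members and 7 and 0 of the other pathway genes. The paper, with its own test, reports fewer genes in each direction for this knockdown against its control. The fold over 1.5 or under 0.5, added after seeing the data, called 2273 and 1105 genes, 3 and 0 members and 12 and 0 pathway genes. Of the members, 0 were called lower by the per-gene test, where 4249 of 16755 genes were. Without a filter 2 were, where 5466 of 38117 genes were. When single libraries were left out 1 to 2 were called lower, where 4604 to 5266 of all genes were. In these settings 6, 7 and 6 to 8 members were called higher, where 4127, 5070 and 4410 to 5091 of all genes were. NIPBL changed sign with RLE factors (-0.0022), DESeq2 (-0.0023) and no filter (-0.0136), and lay between -0.0718 and 0.0986 with single libraries left out. STAG2 passed the test without a filter (-0.14, adjusted p = 0.0363 by edgeR). The cause of these shifts was not tested. Replicate numbers are only shared labels: deviations of same-numbered libraries correlated at -0.103, -0.04 and 0.001 across genes, and no library correlated best with its own number. With a replicate block, 7 members were called higher and 1 lower, 19 and 3 of the other pathway genes, and 4792 and 4853 of all genes. With 3 libraries per group and possibly technical replicates, differences as small as those of STAG1, STAG2 and WAPL depend on single libraries or on the test.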
